A study of Mus musculus with 4 samples.

Results

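Wnt ligands, their receptors and the secreted proteins that modulate them were followed in mammary tumours of MMTV-Neu mice. Members were the protein-coding genes whose symbols name a Wnt, Frizzled, SFRP, DKK or R-spondin protein, or are Lgr4 to Lgr6, Lrp5, Lrp6, Axin1, Axin2, Lef1, Tcf7, Porcn or Wif1. The rule found 52 of the 38293 gene rows of the count files and used no measured value. RNA was sequenced from 2 tumours labelled AXL KO, which the series' design gives as AXL-/-, and from 2 labelled WT, given as AXL+/+, all on the FVB strain. All 4 tumours carried MMTV-Neu, in which a mouse mammary tumour virus promoter drives the Neu (Erbb2) oncogene in the mammary epithelium. The labels give no age, no form of the Neu transgene and no construction of the AXL allele, and do not state whether each replicate is a different animal, so a p-value measures only the spread between these libraries, which may be technical.

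In the canonical Wnt pathway, a secreted Wnt protein binds a Frizzled receptor together with LRP5 or LRP6, which stops an Axin-based complex from destroying beta-catenin, and beta-catenin then works with TCF and LEF factors to switch on target genes such as Axin2. SFRP and WIF proteins bind Wnt ligands outside the cell, DKK proteins bind the LRP co-receptors, and R-spondins, through LGR receptors, keep Frizzled receptors on the cell surface. The pathway is closely tied to the mammary gland, since Wnt1 was found as a gene that mouse mammary tumour virus activates by inserting next to it, and R-spondin genes are further insertion sites of that virus.

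None of the members passed the test between AXL KO and WT tumours. By edgeR 0 of 14330 genes passed, and Axl itself did not, so failing the test does not show equal levels. In both groups the receptor genes were abundant and the ligand genes were not. Among the tested members, Wnt5a and Fzd9 had a higher level in each AXL KO library than in either WT library, as did 14.7% of all genes tested, and most Rspo3 reads came from WT replicate 2. Low counts kept 25 members out of the test, and 27 were tested.

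Promoter sequence is shown for 3 members, the Frizzled genes of highest level per kilobase of exon, Fzd9 and Fzd7, whose groups were separated in opposite directions, and the textbook target gene Axin2, whose counts were too low to test. The sequences are from RefSeq on GRCm38.p6 and end just before the start of the RefSeq gene, which for Fzd7 lies upstream of the start in GENCODE M21. For Fzd9 the bases nearest the start were left out because GENCODE M21 annotates them as exon. Capitals mark the core letters of the TCF and LEF motif, CTTTG or its complement CAAAG.
Fzd9, chr5:135251231-135251297, minus strand: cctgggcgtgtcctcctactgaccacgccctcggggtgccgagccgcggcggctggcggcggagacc
Fzd7, chr1:59481897-59482146, plus strand: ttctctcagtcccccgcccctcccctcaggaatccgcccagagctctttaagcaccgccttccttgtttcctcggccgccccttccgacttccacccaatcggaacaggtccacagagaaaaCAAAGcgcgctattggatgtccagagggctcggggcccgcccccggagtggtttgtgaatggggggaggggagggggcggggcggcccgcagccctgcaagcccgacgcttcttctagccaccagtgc
Axin2, chr11:108920099-108920348, plus strand: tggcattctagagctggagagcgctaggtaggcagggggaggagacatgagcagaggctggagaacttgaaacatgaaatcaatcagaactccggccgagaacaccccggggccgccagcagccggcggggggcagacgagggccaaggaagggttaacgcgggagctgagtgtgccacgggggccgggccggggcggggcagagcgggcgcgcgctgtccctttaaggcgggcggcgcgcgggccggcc
The core occurs once in the Fzd7 window and is absent from the other printed windows. Of 40 windows of 250 bases that belong to 33 members, 17 (42.5%) held the core on either strand, against 48.6% of all 32851 windows in the table. The longer motif CTTTGAT or its complement ATCAAAG, which contains the core, was in 2 member windows (5.0%) and in 3.21% of all windows.

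Reads counted in genes came to 18929743 to 33131739 per library. Axl, the gene labelled KO, was at 4.75 and 4.89 CPM (counts scaled to library size with TMM factors) in AXL KO and at 61.7 and 35.2 CPM in WT. Its log2 difference was −3.33 ± 0.35 (SE), with an adjusted p of 0.9997 in edgeR's quasi-likelihood test. In edgeR 0 of 14330 genes tested (0.0%) passed an adjusted p of 0.05, and 314 (2.19%) had an unadjusted p under 0.05, while DESeq2 called 16 (0.112%), Axl among them with an adjusted p of 2.23e-13. WT replicate 2 stood apart, with a chi-square over genes of 132 to 151 per degree of freedom against each other library, where the other 3 libraries differed by 30.3 to 56.0 among themselves. AXL KO replicate 2 carries another prefix in its sample description, so values without it are those within the shared prefix. Markers of luminal epithelium summed to 4830 and 4405 CPM in AXL KO and 4619 and 5170 CPM in WT, and basal and myoepithelial markers to 19.5 and 36.0 CPM in AXL KO and 30.8 and 59.9 CPM in WT, mostly from Acta2. Endothelial markers summed to 110.0 and 150.3 CPM in AXL KO and 127 and 128 CPM in WT. Macrophage markers summed to 511 and 683 CPM in AXL KO and 570 and 429 CPM in WT, mostly from Lyz2. Adipocyte markers summed to 133 and 142 CPM in AXL KO and 87.0 and 167 CPM in WT. Skeletal muscle, B cell and plasma cell markers stayed under 5 CPM in sum, and the level of a nerve and Schwann cell list, at 800.3 and 771 CPM in AXL KO and 812 and 1105 CPM in WT, came mostly from Sox10.

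**Figure D1:**
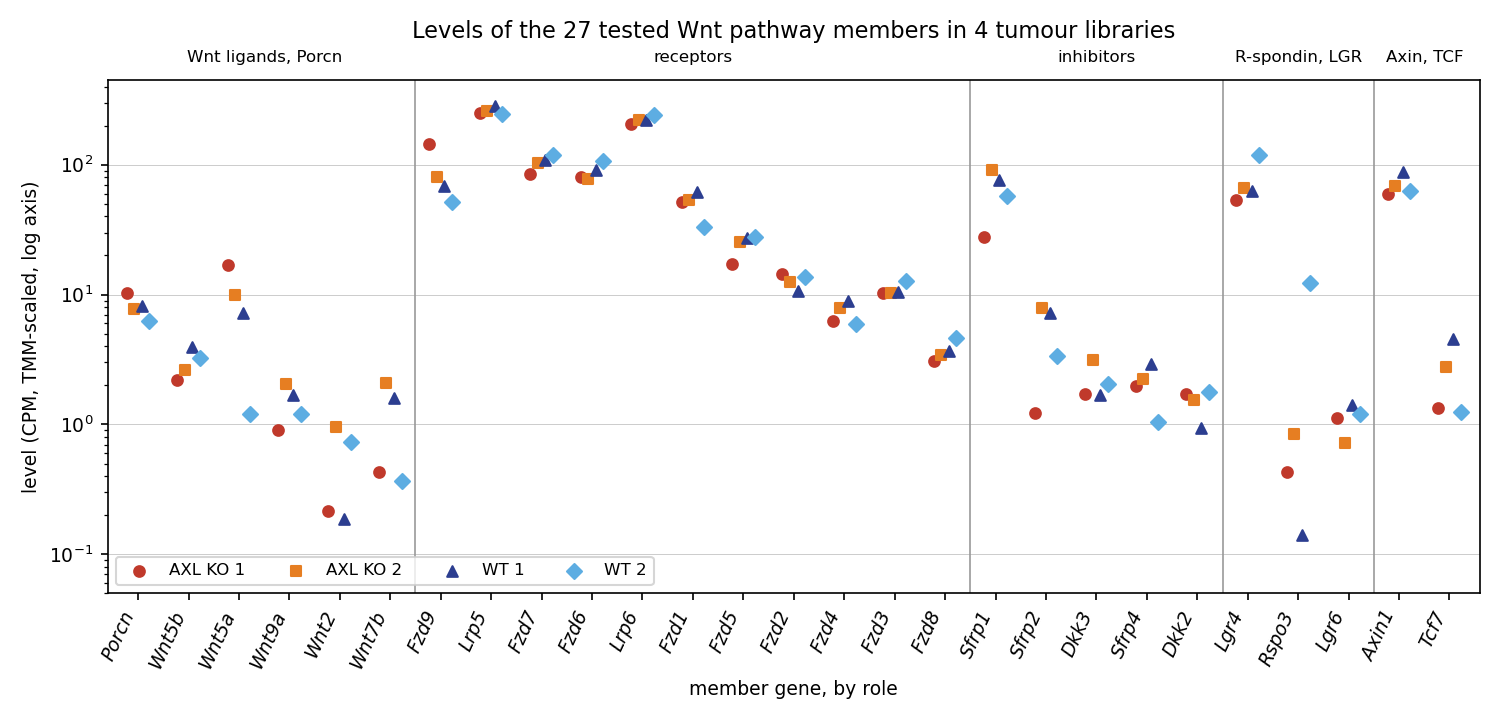
Level of each of the 27 tested members in CPM on a log axis, with 1 point per library (AXL KO replicates left of WT replicates) and genes ordered by role. Co-receptors and most Frizzled genes sit above 10 CPM with their 4 points close together, Wnt5a falls to 1.20 CPM in WT replicate 2, and Rspo3 reaches 12.2 CPM there alone.

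Wnt5a, which encodes the ligand best known for signalling without beta-catenin, supplied most of the Wnt reads in AXL KO tumours. The gene (ENSMUSG00000021994) lies on the plus strand of chromosome 14 from 28504750 to 28527448 in GRCm38. The span of Gm2670 overlaps it on the other strand, and how reads in the overlap were assigned is not known. Wnt5a had 315 and 330 reads in AXL KO, against 155 and 23 reads in WT. That is 16.8 and 9.89 CPM in AXL KO and 7.24 and 1.20 CPM in WT. The groups did not overlap, and WT replicate 2 was far below the other libraries. The mean was 13.4 ± 4.90 CPM in AXL KO and 4.22 ± 4.27 CPM in WT (SD, n = 2 each), and the fitted fold difference was 3.14. On the log2 scale it was 1.65 ± 0.82 (SE) with a 95% interval from −0.45 to 3.75. edgeR gave an unadjusted p of 0.0999 and an adjusted p of 0.9997, and DESeq2 an unadjusted p of 0.0352 and an adjusted p of 0.9999, so the difference did not pass. The log2 difference was 0.88 without WT replicate 2, 3.46 without WT replicate 1, 1.21 without AXL KO replicate 1 and 1.97 without AXL KO replicate 2.

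As a share of all reads on the 19 Wnt genes, Wnt5a took 79.5% (exact 95% binomial interval 75.2 to 83.4) and 52.1% (48.2 to 56.1) in AXL KO replicates 1 and 2, against 46.7% (41.2 to 52.2) and 14.3% (9.28 to 20.7) in WT replicates 1 and 2. Those intervals cover counting error only. The other 18 Wnt genes together came to 4.32 and 9.08 CPM in AXL KO and to 8.27 and 7.22 CPM in WT, so they showed no such separation. The summed level of 10 fibroblast markers was 326 and 1037 CPM in AXL KO and 761 and 1137 CPM in WT, and was lowest in AXL KO replicate 1. Its part in the Wnt5a values was not tested.

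Wnt5b, a close relative of Wnt5a, was ordered the other way. Its level was 2.19 and 2.64 CPM in AXL KO and 3.97 and 3.24 CPM in WT, a log2 difference of −0.57 ± 0.37 (SE, edgeR unadjusted p = 0.183), with no overlap between the groups. Without 1 library the difference ran from −0.74 to −0.42. A further 3 ligand genes passed the filter at low levels and their groups overlapped. Wnt9a was at 0.907 and 2.04 CPM in AXL KO and 1.68 and 1.20 CPM in WT. Wnt7b was at 0.427 and 2.07 CPM in AXL KO and 1.59 and 0.366 CPM in WT. Wnt2 was at 0.214 and 0.959 CPM in AXL KO and 0.187 and 0.732 CPM in WT. Within each genotype these ligands differed by more than the genotype means did, and each changed sign when AXL KO replicate 2 was left out, with log2 differences of −0.69, −1.22 and −1.08. Wnt9a, Wnt7b and Wnt2 had log2 differences of 0.06, 0.40 and 0.48 with all libraries.

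Porcn, whose enzyme attaches the lipid that Wnt proteins need for secretion, was at 10.2 and 7.73 CPM in AXL KO and 8.18 and 6.23 CPM in WT. That is a log2 difference of 0.32 ± 0.33 (SE), with overlapping groups. Wls, which encodes the carrier that brings Wnt proteins to the cell surface and is not a member, was chosen after its values were seen. It was at 159 and 146 CPM in AXL KO and 139 and 82.1 CPM in WT, a log2 difference of 0.47 that was 0.14 without WT replicate 2.

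The remaining 14 Wnt genes were below the filter. Wnt1, Wnt3 and Wnt3a, classical activators of beta-catenin signalling, had 0 reads in all 4 libraries, where a count of 0 allows up to 3 reads, or 0.0899 to 0.160 CPM. Wnt11 had 2 and 15 reads in AXL KO and 4 and 14 reads in WT. Wnt4, a progesterone-induced ligand of the mammary gland, had 3 and 13 reads in AXL KO and 6 and 9 reads in WT. Wnt10b had 3 and 8 reads in AXL KO and 1 and 3 reads in WT. The other 8 (Wnt2b, Wnt6, Wnt7a, Wnt8a, Wnt8b, Wnt9b, Wnt10a and Wnt16) had 3 reads or fewer in each library. For these genes a difference between genotypes was not detectable at this depth.

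**Figure D2:**
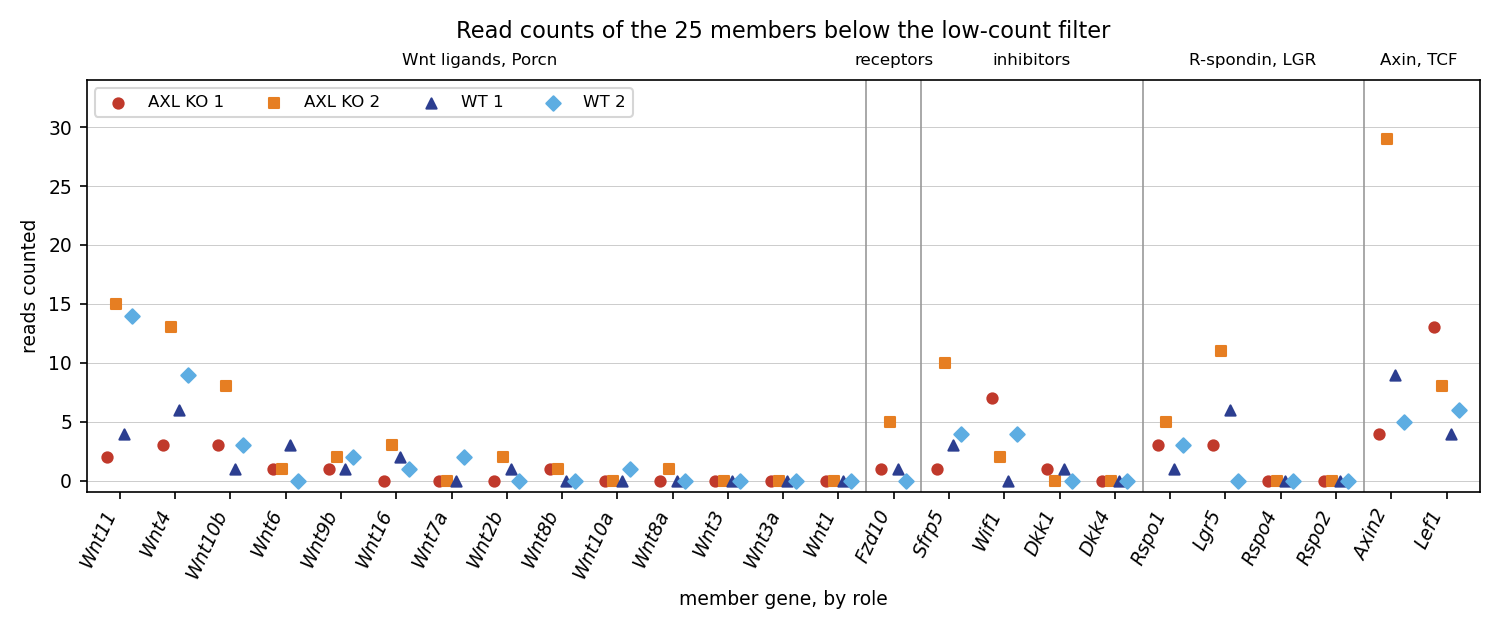
Reads counted per library for the 25 members below the low-count filter, with 1 point per library (AXL KO replicates left of WT replicates). Most points lie at or near 0, and the highest is Axin2 with 29 reads in AXL KO replicate 2, the most deeply sequenced library.

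Receptors were the best-expressed members, and their summed level hardly differed between libraries, at 867 and 854 CPM in AXL KO and 894 and 860 CPM in WT. Per kilobase of exon, averaged over the 4 libraries, the order of receptor levels was Fzd9 (37.7 CPM per kb), Lrp5 (26.5), Fzd7 (23.0), Fzd6 (18.5), Lrp6 (16.2) and Fzd1 (11.9), followed by Fzd5 (3.52), Fzd2 (3.49), Fzd4 (1.08), Fzd3 (0.854) and Fzd8 (0.619). Fzd10 had 5 reads or fewer per library and was not tested. No ligand gene exceeded 1.13 CPM per kb on average, the value of Wnt5b, and Wnt5a was at 1.12.

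Fzd9, the receptor gene with the highest level per kilobase, was the member with the smallest p. It (ENSMUSG00000049551) spans 135248938 to 135251230 of chromosome 5 on the minus strand. Its reads numbered 2728 and 2672 in AXL KO and 1464 and 993 in WT. The level was 146 and 80.1 CPM in AXL KO and 68.4 and 52.0 CPM in WT, so the groups did not overlap, and AXL KO replicate 1 was well above the rest. The means were 113 ± 46.3 CPM in AXL KO and 60.2 ± 11.6 CPM in WT (SD, n = 2 each), and the fitted fold difference was 1.87. The log2 difference of 0.91 ± 0.33 (SE, 95% interval 0.05 to 1.76) had an unadjusted p of 0.0413 in edgeR and 0.0183 in DESeq2, and adjusted p-values of 0.9997 and 0.9999. It was 0.41 without AXL KO replicate 1, 1.26 without AXL KO replicate 2, 1.12 without WT replicate 1 and 0.72 without WT replicate 2. Fzd9 held 35.2% (exact 95% interval 34.2 to 36.3) and 21.4% (20.7 to 22.1) of all Frizzled reads in AXL KO, and 17.5% (16.7 to 18.3) and 13.8% (13.0 to 14.6) in WT. These intervals cover counting error only. The other Frizzled genes together came to 268 and 295 CPM in AXL KO and to 323 and 324 CPM in WT, so the share also depends on that lower sum in AXL KO.

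Most other Frizzled genes had small negative differences. Fzd7, a receptor linked to mammary stem cell activity, was at 84.9 and 104 CPM in AXL KO and 109 and 119 CPM in WT, a log2 difference of −0.27 ± 0.19 (SE, 95% interval −0.74 to 0.21). Fzd6, an inhibitor of beta-catenin signalling in several settings and a planar polarity receptor, was at 80.1 and 77.5 CPM in AXL KO and 91.7 and 107 CPM in WT, a difference of −0.33 ± 0.17 (SE). Fzd5 was at 17.2 and 25.3 CPM in AXL KO and 27.2 and 27.7 CPM in WT, a difference of −0.37 ± 0.26 (SE). For these genes each AXL KO library was under both WT libraries, as was the case for Fzd8 at −0.33 and Fzd3 at −0.17. Fzd8 was at 3.10 and 3.45 CPM in AXL KO and 3.64 and 4.60 CPM in WT. Fzd3 was at 10.35 and 10.25 CPM in AXL KO and 10.42 and 12.71 CPM in WT, so WT replicate 1 nearly equalled the AXL KO libraries. Counting Fzd3, the order of AXL KO under WT held for 5 of the 11 tested receptor genes (45.5%), against 14.5% of all genes tested. It was not tested for the receptors as a set. The edgeR unadjusted p-values of these 5 genes ran from 0.110 for Fzd6 to 0.564 for Fzd3. Fzd1 was at 51.2 and 53.5 CPM in AXL KO and 61.5 and 33.4 CPM in WT, and its WT libraries lay on either side of both AXL KO libraries. Fzd2 was at 14.4 and 12.5 CPM in AXL KO and 10.7 and 13.7 CPM in WT. Fzd4 was at 6.24 and 7.94 CPM in AXL KO and 8.97 and 5.91 CPM in WT. These 3 genes had overlapping groups and log2 differences of 0.14, 0.14 and −0.07. Fzd1, Fzd2 and Fzd7 are similar in sequence, so reads that align to several of them may have gone uncounted.

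The co-receptor genes had small differences and overlapping groups. Lrp5 was at 249 and 257 CPM in AXL KO and 282 and 244 CPM in WT, and its log2 difference was −0.06 with a 95% interval from −0.53 to 0.41. Lrp6 was at 205 and 222 CPM in AXL KO and 220 and 241 CPM in WT, a difference of −0.11 with an interval from −0.56 to 0.34.

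Each tested secreted inhibitor differed more between the libraries of AXL KO, of WT or of both than between the genotype means. Sfrp1, which encodes a Wnt-binding protein, was the most abundant at 27.9 and 91.3 CPM in AXL KO and 76.3 and 57.9 CPM in WT. Sfrp2 was at 1.23 and 7.82 CPM in AXL KO and 7.24 and 3.35 CPM in WT. For both genes AXL KO replicate 1 was the lowest library and AXL KO replicate 2 the highest, so the groups overlapped. Their log2 differences were −0.17 ± 0.55 and −0.20 ± 0.88 (SE), and turned to 0.44 and 0.55 without AXL KO replicate 1 and to 0.05 and 0.48 without WT replicate 1. Without AXL KO replicate 2 they were −1.28 and −2.12. AXL KO replicate 1 was also the lowest for 8 of 10 fibroblast markers, whose part in these values was not tested. In bulk tumours, fewer cells of a type and less RNA per cell cannot be told apart.

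Dkk3, a divergent member of the Dickkopf family, was at 1.71 and 3.15 CPM in AXL KO and 1.68 and 2.04 CPM in WT. Dkk2, which binds LRP co-receptors, was at 1.71 and 1.53 CPM in AXL KO and 0.935 and 1.78 CPM in WT. Sfrp4 was at 1.97 and 2.25 CPM in AXL KO and 2.90 and 1.05 CPM in WT. None of these 3 genes separated the groups, and their log2 differences were 0.40, 0.26 and 0.09. Sfrp5 had 1 and 10 reads in AXL KO and 3 and 4 reads in WT. Wif1 had 7 and 2 reads in AXL KO and 0 and 4 reads in WT. Dkk1, itself a known beta-catenin target gene, had at most 1 read in a library and Dkk4 had 0 in all 4.

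**Figure D3:**
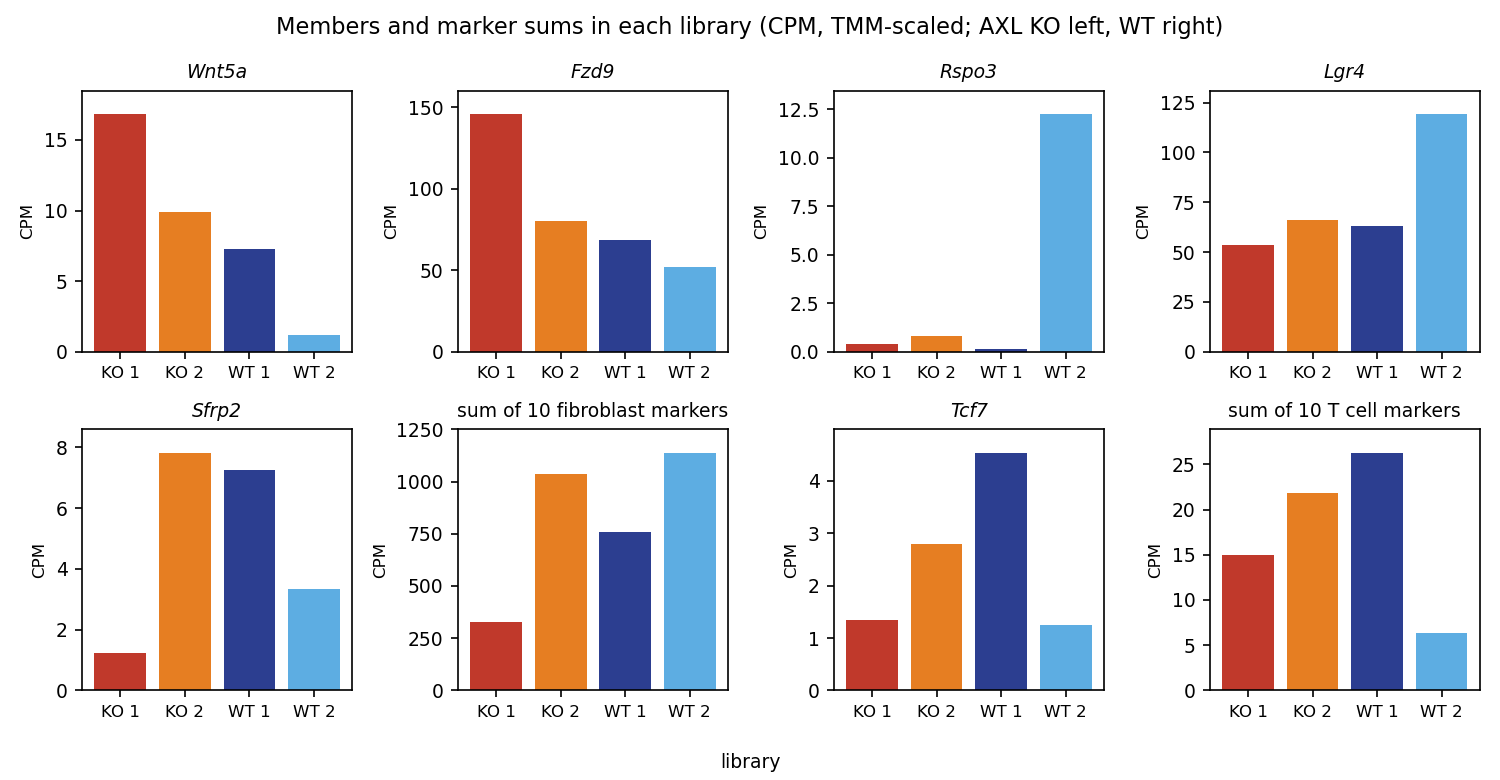
Level in CPM (bars, 1 per library, axes from 0, AXL KO left and WT right) of Wnt5a, Fzd9, Rspo3, Lgr4, Sfrp2 and Tcf7, with the summed level of 10 fibroblast and 10 T cell markers. Wnt5a and Fzd9 are highest in AXL KO replicate 1 and lowest in WT replicate 2, Rspo3 and Lgr4 are highest in WT replicate 2, and Tcf7 is low in the same 2 libraries in which the T cell sum is lowest.

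Rspo3, which encodes an R-spondin that amplifies Wnt signalling, was set by 1 library. It had 8 and 28 reads in AXL KO and 3 and 234 reads in WT, that is 0.427 and 0.839 CPM in AXL KO and 0.140 and 12.2 CPM in WT. WT replicate 1 was the lowest library and WT replicate 2 the highest, so the AXL KO libraries lay between them. With all libraries the log2 difference was −3.22 ± 1.66 (SE, 95% interval −7.45 to 1.01), with an unadjusted p of 0.108 in edgeR and 0.0194 in DESeq2. Without WT replicate 2 it turned to 2.21. Without WT replicate 1 it was −4.19 with an edgeR adjusted p of 0.0466, the one call for a member under any alternative, in a fit where WT replicate 2 stands alone for its group and is assumed to vary like the others. The fibroblast markers given above also had their highest sum in WT replicate 2, which was the highest library for 8 of the 10, and their part in the Rspo3 values was not tested. Endothelial markers summed to 128 CPM in WT replicate 2, and their part was not tested either.

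Lgr4, the receptor that carries R-spondin signals in many epithelia, was the most abundant LGR gene and was also highest in WT replicate 2. It was at 53.6 and 66.0 CPM in AXL KO and 63.3 and 119 CPM in WT, a log2 difference of −0.61 ± 0.34 (SE, edgeR unadjusted p = 0.129) that was −0.08 without WT replicate 2 and −0.99 without WT replicate 1. Lgr6 was at 1.12 and 0.719 CPM in AXL KO and 1.402 and 1.203 CPM in WT, with the AXL KO values under the WT values and a log2 difference of −0.53 ± 0.49 (SE). Lgr5, a stem cell marker and beta-catenin target, had 3 and 11 reads in AXL KO and 6 and 0 reads in WT. Rspo1, a luminal R-spondin of the mammary gland, had 3 and 5 reads in AXL KO and 1 and 3 reads in WT, and Rspo2 and Rspo4 had 0 reads in all 4 libraries.

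Axin1, a scaffold of the destruction complex, was well expressed, at 59.6 and 68.9 CPM in AXL KO and 87.1 and 62.8 CPM in WT. Its log2 difference was −0.22 ± 0.23 (SE), with overlapping groups. Its paralog Axin2, the most widely used readout of beta-catenin activity, had 4 and 29 reads in AXL KO and 9 and 5 reads in WT, or 0.214 and 0.869 CPM in AXL KO and 0.421 and 0.262 CPM in WT. Lef1, both a partner of beta-catenin and one of its targets, had 13 and 8 reads in AXL KO and 4 and 6 reads in WT. Axin2 and Lef1 therefore stayed under 1 CPM in every library and were not tested.

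Tcf7, which encodes a TCF factor that T cells also make, was at 1.33 and 2.79 CPM in AXL KO and 4.53 and 1.26 CPM in WT. WT replicate 1 was the highest library and WT replicate 2 the lowest. The log2 difference of −0.47 ± 0.73 (SE) turned to 0.75 without WT replicate 1. Summed over 10 T cell markers, the level was 15.0 and 21.8 CPM in AXL KO and 26.3 and 6.33 CPM in WT, the same order of libraries as for Tcf7, and its part in the Tcf7 values was not tested.

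Across all tested members, 11 of 27 had a positive log2 difference (40.7%), where 49.7% of all genes tested did, and the median was −0.11, where it was −0.0019 over all genes tested. The AXL KO values were both over the WT values for 2 members (7.41%), Wnt5a and Fzd9, against 14.7% of all genes tested. They were both under the WT values for 7 members (25.9%), namely Wnt5b, Fzd3, Fzd5, Fzd6, Fzd7, Fzd8 and Lgr6, against 14.5% of all genes tested. For Fzd3 the margin was slight, at 10.35 CPM in AXL KO replicate 1 and 10.42 CPM in WT replicate 1. With 2 libraries per group the smallest p of a two-sided exact permutation test of a single gene is 0.333. By edgeR 0 members were called and 1 (3.70%) had an unadjusted p under 0.05, Fzd9, against 2.19% of all genes and 1.15% of all genes for such a p with a higher level in AXL KO. DESeq2 called 0 members and had 3 of 27 at an unadjusted p under 0.05 (Fzd9, Rspo3 and Wnt5a), against 502 of 14330 genes (3.5%). The limma-voom fit called 0 members and had 1 of 27 at such a p, against 285 of 14330 genes (1.99%). The median was 0.03 without AXL KO replicate 1, −0.33 without AXL KO replicate 2, 0.03 without WT replicate 1 and −0.16 without WT replicate 2. WT replicate 2 was the highest library for 9 tested members and the lowest for 9 (33.3% each), near its shares of 34.6% and 35.8% over all genes tested, and AXL KO replicate 1 was the lowest for 10 (37.0%, against 24.7% over all genes).

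**Figure D4:**
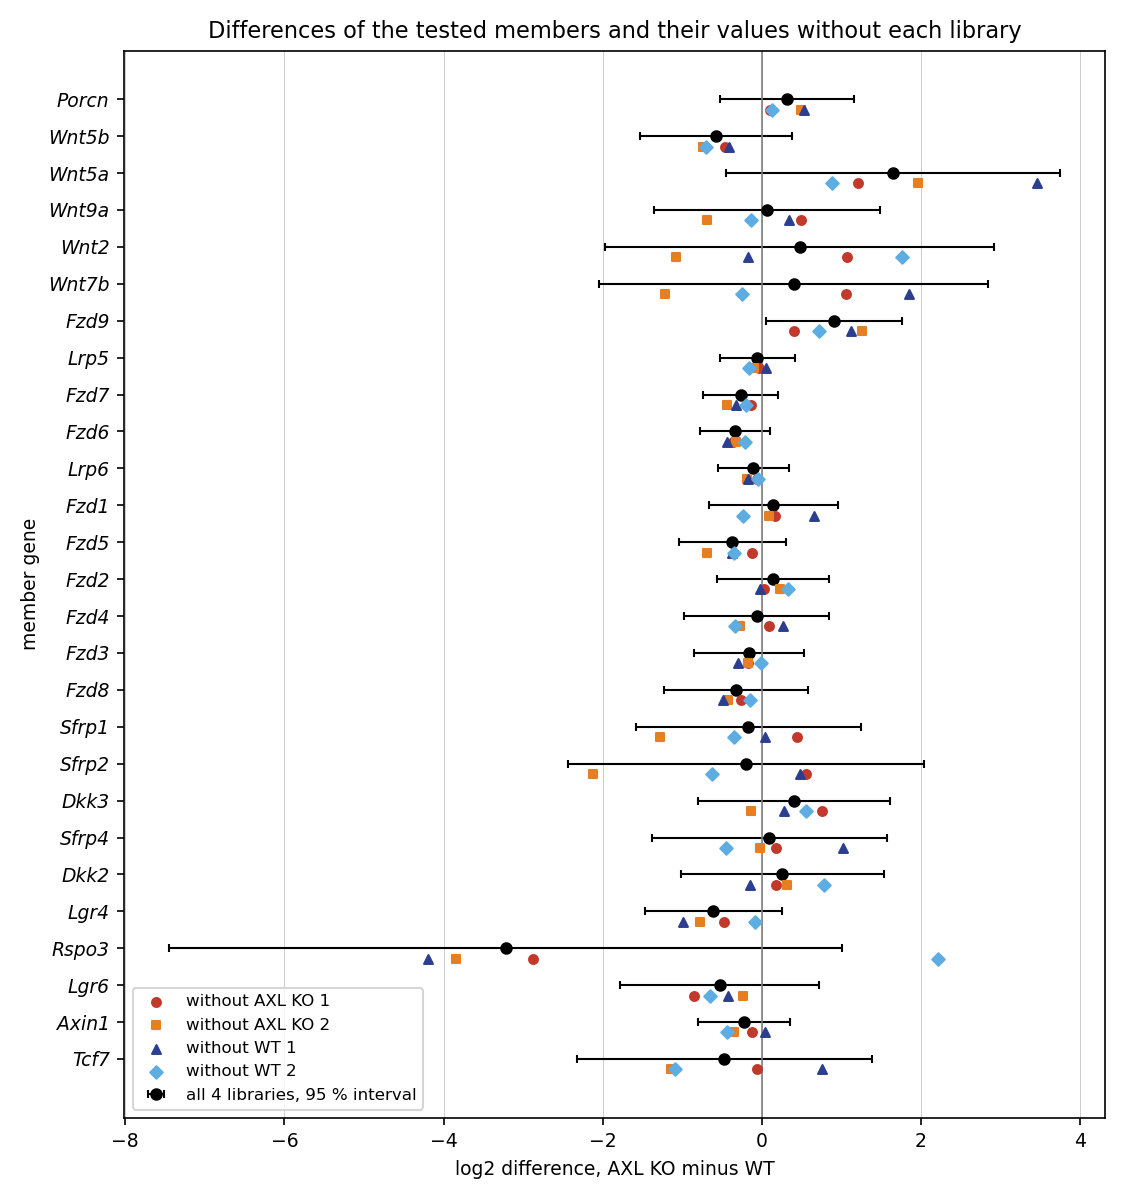
Log2 difference between AXL KO and WT (positive means higher in AXL KO) for each tested member, as a black point with its 95% interval from all 4 libraries and, beneath it, coloured points for the fits that leave out 1 library. The interval of Fzd9 alone stays clear of 0. Wnt5a, whose groups do not overlap, is positive in all 4 such fits, and Rspo3 moves from −4.19 to 2.21.

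Of 47 further pathway genes that are not members, such as beta-catenin, the Dishevelled proteins and the kinases of the destruction complex, 41 were tested. By edgeR 0 were called, 13 had a positive (31.7%, against 49.7% of all genes tested) and 28 a negative difference, and the median was −0.09. Dact2, whose protein binds Dishevelled, was at 60.05 and 64.95 CPM in AXL KO and 94.95 and 90.57 CPM in WT, a log2 difference of −0.57 ± 0.16 (SE, edgeR unadjusted p = 0.0173). Ptk7, a pseudokinase co-receptor of planar polarity signalling, was at 112 and 119 CPM in AXL KO and 148 and 169 CPM in WT, a difference of −0.46 ± 0.17 (SE, edgeR unadjusted p = 0.0430). These were the only 2 of the 41 (4.88%) with an edgeR unadjusted p under 0.05, against 2.19% of all genes, and in both the groups were apart. The CXXC factor gene Cxxc5 and the casein kinase gene Csnk1e followed at −1.02 and −0.85, and were −0.29 and −0.23 without WT replicate 2. Nkd2, which encodes a Dishevelled antagonist, was at −0.67, and at −0.18 without WT replicate 2, and the co-repressor gene Tle1 was at −0.29. The AXL KO values were over both WT values for 4 of the 41 genes (9.76%, against 14.7% of all genes) and under both for 12 (29.3%, against 14.5%).

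Reported beta-catenin target genes outside the members had differences of both signs. None passed the edgeR test, which Axl did not pass either. Nkd1, Znrf3, Rnf43 and Notum are also among the further pathway genes above. Of 14 such target genes 10 were tested, with 5 positive and 5 negative differences and a median of 0.0008. Calls by edgeR or DESeq2 numbered 0, and 0 genes had an edgeR unadjusted p under 0.05, against 2.19% of all genes. Nkd1, a feedback inhibitor, was at 0.214 and 1.08 CPM in AXL KO and 1.21 and 2.35 CPM in WT, a log2 difference of −1.35 ± 0.79 (SE), and was the 1 tested target with both AXL KO values under the WT values. The oncogene Myc was at 93.2 and 93.7 CPM in AXL KO and 91.7 and 112 CPM in WT, and the cyclin gene Ccnd1 at 246 and 360 CPM in AXL KO and 329 and 256 CPM in WT. Cd44, Tnfrsf19 and Apcdd1 had log2 differences of −0.60, 0.53 and 0.08, with overlapping groups, and Notum and Sp5 had 0 reads in all 4 libraries.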

How the data were processed

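The authors deposited raw read counts per gene for 4 libraries. Build GRCm38 and the tools HTSeq 0.5.3, TopHat2 2.0.10, DESeq2 1.4.5 and CASAVA 1.8 are named in the submitters' processing notes, without roles. The sources used here give neither the annotation release nor the strand setting. The spans of Wnt5a, Wnt5b, Wnt7b, Wnt11, Fzd6, Sfrp2, Tcf7, Axin2, Rspo1, Rspo4 and Lgr5 overlap those of other annotated genes. How reads in these overlaps were assigned is therefore not known, and whether exons overlap was not examined. The 5 summary lines per file, which name no gene, stayed out of the fits (no feature 5.27 to 8.11%, ambiguous 0.635 to 1.85%, not unique 23.2 to 28.1% of all lines). Symbols and exon lengths came from GENCODE M21, which matched 36429 of 38293 identifiers.

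Counts were filtered with filterByExpr (14330 genes kept), scaled by TMM and fitted across all genes with edgeR 4.0.16 (glmQLFit, glmQLFTest, Benjamini-Hochberg, threshold 0.05, R 4.3.3). The same steps were also run on counts simulated with the means, library sizes and dispersions of these data. CPM are counts scaled to the TMM-adjusted library size. Standard errors come from the log2 difference and its F statistic. Alternatives used DESeq2 1.42.0, limma 3.58.1 (voom), other scalings and filters, the replicate number as a block, and each library left out. Named in each role were the 4 tested members of smallest p and the 3 of highest level per kilobase, with Axin2, Lef1, Tcf7 and Lgr5; values of the other members were added outside this rule, after they were seen, so that all are accounted for. The members and lists were chosen with earlier results of these data known.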

Additional observations from a re-analysis of the deposited data

How the results depend on the processing

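Of the 27 tested members, 12 kept the direction of their difference under every alternative tried, and 15 changed it under at least 1. Among the 12 were Wnt5a, Fzd9, Lgr4, Fzd6 and Fzd7. All of these except Lgr4 had groups that did not overlap. For such genes leaving out 1 library could hardly reverse the direction, so a kept direction adds little to the separation. The 15 others all changed direction with 1 library left out, and Wnt9a also turned to −0.026 with the replicate number as a block. With 1 library left out the log2 difference ran from −0.69 to 0.49 for Wnt9a, −1.08 to 1.76 for Wnt2, −1.22 to 1.85 for Wnt7b, −4.19 to 2.21 for Rspo3, −1.14 to 0.75 for Tcf7, −0.44 to 0.034 for Axin1, −0.16 to 0.052 for Lrp5, −1.28 to 0.44 for Sfrp1, −2.12 to 0.55 for Sfrp2, −0.45 to 1.02 for Sfrp4, −0.14 to 0.78 for Dkk2, −0.14 to 0.75 for Dkk3, −0.23 to 0.65 for Fzd1, −0.028 to 0.33 for Fzd2 and −0.33 to 0.27 for Fzd4. The median over members then ran from −0.33 to 0.034, the number of members with every AXL KO value over every WT value from 4 to 9 (2 with all libraries), the number under from 7 to 14 (7 with all libraries), which is 14.8 to 33.3% of members over and 25.9 to 51.9% under, where such fits give 25.8 to 40.1% of all genes over and 26.8 to 38.8% under, the number called from 0 to 1, the number of all genes called from 0 to 216, and the log2 difference of Axl from −3.68 to −2.87. The 216 calls and the 1 member call came without WT replicate 1, where Axl passed as well (adjusted p = 0.0237). Without the low-count filter 5 of 46 members (10.9%) had both AXL KO values over the WT values, against 15.0% of all genes in that fit. Wnt8b, Wnt10b and Fzd10, with 8 reads or fewer per library, then counted as over. In the same fit 7 members (15.2%) had both AXL KO values under the WT values, against 12.7% of all genes. DESeq2 called 16 genes in place of 0, and Axl passed there with a log2 difference of −3.33. Why the tools differ was not tested. Replicate numbers name the libraries, and the labels do not say whether they pair them. The correlation of same-numbered deviations was −0.0450, a single value that with 2 libraries per group cannot decide it. With the replicate numbers as a block 0 members and 0 genes were called and the median was −0.11. Depth limits the 25 members below the filter.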
